A study of Mus musculus with 6 samples.

Results

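The AP-1 and immediate early factors described here are 10 genes chosen by symbol, Fos, Fosb, Fosl1, Fosl2, Jun, Junb, Jund, Egr1, Atf3 and Ier3, and all 10 had a row among the 23282 gene rows deposited for each library. Expression was compared between Ink4a-/- mouse astrocytes that received pcDNA3.1-puro, the vector without an insert (control, 3 libraries) and the same cells that received pcDNA3.1-JAG1-puro by transfection (JAG1-overexpressing, 3 libraries). JAG1 is a transmembrane ligand of the NOTCH receptors, and the comparison asks which genes change in astrocytes that carry more of it. The labels give the tissue as brain, the genotype of the control libraries as WT, read here as without added JAG1, and the same Ink4a-/- astrocyte line for every library. The study names the line Ink4a/Arf-/-, so that all groups share the loss of Ink4a and Arf, both products of the Cdkn2a locus, and growth in medium with fetal bovine serum, and neither the age of the animals nor the time between transfection and harvest was given. The sources used here do not say if each library had a transfection of its own, so that the p-values measure the spread between these libraries, which may be technical. Gene rows summed to 20489062, 18889751 and 18952552 reads in the control and to 20071276, 14341634 and 16442278 reads in the JAG1-overexpressing libraries.

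AP-1 is not 1 protein but a family of dimers. FOS proteins (FOS, FOSB, FOSL1 and FOSL2) do not readily pair with each other. They bind DNA with a partner, chiefly one from the JUN family (JUN, JUNB and JUND), whereas JUN proteins can also pair among themselves. The contact between partners is made by a leucine zipper and that with DNA by the basic stretch before it. Fos, Fosb, Jun, Junb, Egr1, Atf3 and Ier3 are immediate early genes. Such genes are switched on within minutes of serum, growth factors or stress through MAP kinases and need no new protein. Their messages are short-lived. Fosl1 and Fosl2 follow later and last longer, and Jund is present at a steady level in most cells. In glia, AP-1 is known for its part in reactive responses and, in glioma, for genes of invasion and the mesenchymal state.

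The promoters are shown for the bases before the RefSeq starts of members that rose, fell or could not be tested. RefSeq promoters of GRCm38.p6 were used for 8 of the 10 members, all but Fosl1 and Egr1. The 250 bases before the RefSeq start of 5 of them are printed 5′ to 3′ on the strand of the gene, with matches to the searched letters in capitals.
Fos, chr12:85473640-85473889, plus strand: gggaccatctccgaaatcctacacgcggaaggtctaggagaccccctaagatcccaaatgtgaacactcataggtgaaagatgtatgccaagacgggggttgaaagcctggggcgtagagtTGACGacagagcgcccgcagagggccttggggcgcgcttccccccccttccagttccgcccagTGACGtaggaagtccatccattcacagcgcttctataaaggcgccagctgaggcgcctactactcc
Jun, chr4:95052223-95052472, minus strand: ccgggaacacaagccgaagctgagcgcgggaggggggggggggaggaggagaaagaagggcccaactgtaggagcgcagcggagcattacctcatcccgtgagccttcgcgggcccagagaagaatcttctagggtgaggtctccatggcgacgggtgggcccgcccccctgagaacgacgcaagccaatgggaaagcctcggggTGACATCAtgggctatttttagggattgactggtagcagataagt
Fosl2, chr5:32136222-32136471, plus strand: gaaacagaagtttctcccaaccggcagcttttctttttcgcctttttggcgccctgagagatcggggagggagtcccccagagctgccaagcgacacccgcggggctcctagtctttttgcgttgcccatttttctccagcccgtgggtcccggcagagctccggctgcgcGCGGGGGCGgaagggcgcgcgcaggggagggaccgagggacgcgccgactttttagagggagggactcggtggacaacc
Junb, chr8:84978749-84978998, minus strand: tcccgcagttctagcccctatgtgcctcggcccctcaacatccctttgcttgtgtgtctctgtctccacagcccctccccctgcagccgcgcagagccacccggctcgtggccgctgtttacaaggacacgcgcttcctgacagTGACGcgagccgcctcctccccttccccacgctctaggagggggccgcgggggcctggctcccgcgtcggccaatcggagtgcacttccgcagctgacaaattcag
Ier3, chr17:35821463-35821712, plus strand: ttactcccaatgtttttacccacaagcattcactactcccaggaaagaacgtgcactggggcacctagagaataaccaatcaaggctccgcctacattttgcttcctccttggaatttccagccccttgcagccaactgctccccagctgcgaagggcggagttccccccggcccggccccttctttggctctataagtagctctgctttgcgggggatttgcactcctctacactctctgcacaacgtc

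Both strands were searched for the AP-1 letters TGACTCA, the ATF/CREB letters TGACGTCA, the variant TGACATCA, the core TGACG, which also lies within TGACGTCA, the EGR letters GCGNGGGCG and the CArG box bound by SRF. Among 32851 promoter windows of this length, TGACTCA was found in 4.46%, TGACGTCA in 1.55%, TGACATCA in 2.93%, TGACG in 17.77%, GCGNGGGCG in 4.7% and the CArG box in 1.47%. TGACATCA was found in Jun, between 45 and 38 bases before the start, and in none of the other 7 windows of members. TGACG was found in 4 of 8 windows, those of Fos, in 2 places, Fosb, Junb and Atf3, and GCGNGGGCG in those of Fosl2 and Fosb. TGACTCA, TGACGTCA and the CArG box were in none of the 8 windows, which says only that these letters are not in the 250 bases. The bases that follow the RefSeq starts of Jund and Junb were not found whole in a GENCODE transcript, and both starts lie upstream of the GENCODE start, that of Jund, with its window at chr8:70697489-70697738, by far the more. The windows of Fosl2 and Atf3 lie inside the GENCODE gene, so that none of these 4 windows need be the bases before the outermost start annotated there. Those of Ier3 and Fosb reach into the GENCODE gene with their last bases. The Ier3 window ends at 35821712, and the gene starts at 35821684. On the minus strand, the Fosb window runs down to 19310046, and the gene starts at 19310051.

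In JAG1-overexpressing astrocytes, Egr1, Ier3, Fosl1 and, by a small margin, Jun were higher, and Jund, Fosl2 and Junb were lower. Egr1 was 3.63-fold and Ier3 3.35-fold higher, Fosl1 was 2.09-fold higher, and Jund was 2.76-fold lower. Fos and Fosb had at most 9 reads in any library and could not be tested, and Atf3 did not pass the test. Of the 8 members with enough reads, 4 were higher and 3 lower at an adjusted p under 0.05, where 55.1% of all 11712 tested genes were called, 27.4% as higher and 27.7% as lower. With a change of at least 2-fold also required, 3 members were higher and 1 lower, against 13.9% of all tested genes in either direction. In RNA from whole cultures, fewer cells of a type and less RNA per cell cannot be told apart. The groups did not overlap for 4 members that lay above and 3 that lay below in JAG1-overexpressing astrocytes, against 62.0% of all tested genes whose groups did not overlap. The median log2 fold change was −0.15 over the 8 members and 0.00386 over all tested genes.

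**Figure D1:**
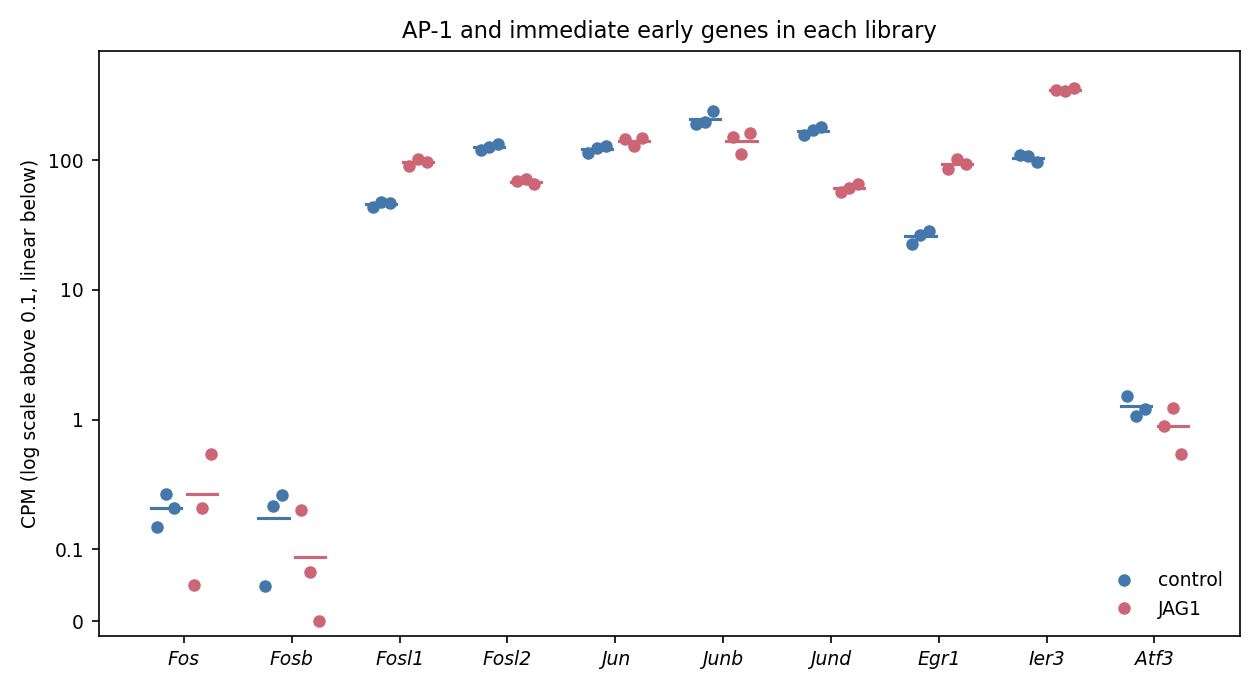
Normalized expression of the 10 genes in each library, in CPM on an axis that is logarithmic above 0.1 and linear below. Points are the 3 control (blue) and 3 JAG1-overexpressing (red) libraries and bars their means; Fos and Fosb lie below 1 CPM in every library, and Egr1, Ier3 and Fosl1 stand above control and Fosl2, Junb and Jund below it.

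CPM are the reads of a gene scaled to the size of its library after TMM normalization. As the libraries read the 3' end of each transcript, a count does not grow with transcript length, and levels of different genes are set side by side here on that basis, with the reservation that the annotated 3' end may catch a different share of the reads of each gene.

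The FOS family was carried by Fosl1 and Fosl2. Fos, the founding member, on chromosome 12 (GRCm38, chr12:85473890-85477273), had 3, 5 and 4 reads in the control and 1, 3 and 9 reads in the JAG1-overexpressing libraries. Fosb, on chr7:19302696-19310051, had 1, 4 and 5 reads in control and 4, 1 and 0 reads in JAG1-overexpressing astrocytes. A count of 3, taken as the limit of detection, corresponds to 0.148 CPM in the deepest library and 0.206 CPM in the shallowest. This limit allows for counting error alone, and PCR copies of a molecule are counted as reads of their own. Both genes were thus at or near this limit in both groups, and a difference was not detectable at this depth. Without the filter on low counts, the log2 fold change of Fos was 0.31 (adjusted p = 0.783) and that of Fosb −0.80 (adjusted p = 0.544, edgeR's quasi-likelihood test).

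Fosl1, which encodes FRA1, a FOS protein without the strong activation domain of FOS, had 43.6, 48.0 and 47.1 CPM in control and 91.0, 102 and 97.2 CPM in JAG1-overexpressing astrocytes. Every JAG1-overexpressing library stood above every control library, and the spread within a group was small beside the gap. The log2 fold change was 1.07 (standard error 0.07, adjusted p = 1.97e-07). Fosl1 lies on chromosome 19 (chr19:5447547-5455946), on which the 422 tested genes had a median log2 fold change of 0.61, so that its change relative to its own chromosome was 0.46. The antisense strand there carries Ccdc85b, whose exons cover 57.2% of the exon bases of Fosl1 and all of the last 300 bases of its longest coding transcript in GENCODE. Ccdc85b had 115 CPM in control and 176 CPM in JAG1-overexpressing astrocytes (log2 fold change 0.61 with standard error 0.05, adjusted p = 2.25e-06), and whether the counting used strand is not given in the sources used here. None of the last 300 bases of Ccdc85b lie in exons of Fosl1, so that the shared 3' end is that of Fosl1, whose reads could have been counted in either row.

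Fosl2, which encodes FRA2, the other late FOS protein, went the opposite way. It had 119, 126 and 133 CPM in control and 68.7, 71.4 and 65.8 CPM in JAG1-overexpressing astrocytes, with no overlap between the groups. The log2 fold change was −0.88 (standard error 0.06, adjusted p = 4.58e-07), on chromosome 5, whose median was 0.02. The gene lies on chr5:32135801-32157842 and no other annotated gene overlaps it.

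The groups overlapped in the sum of the FOS family but not in its make-up. Control astrocytes had a summed level of 172 CPM ± 8.74 (SD, n = 3), and JAG1-overexpressing astrocytes one of 166 CPM ± 7.16 (SD, n = 3), ranging from 163 to 180 CPM and from 160 to 174 CPM. Fosl1 made up 26.8% ± 0.726 (SD, n = 3) of the family in control and 58.4% ± 1.31 (SD, n = 3) in JAG1-overexpressing astrocytes. The ratio of Fosl1 to Fosl2 was 0.366, 0.382 and 0.355 in the control and 1.33, 1.43 and 1.48 in the JAG1-overexpressing libraries, so that Fosl2 was the more abundant message in each control library and Fosl1 in each JAG1-overexpressing library. Fos and Fosb were a trace of the family in each library, neither of them above 0.334% in any library. For a value per library such as these shares, an exact two-sided permutation test of 3 libraries against 3 cannot go below p = 0.1.

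**Figure D2:**
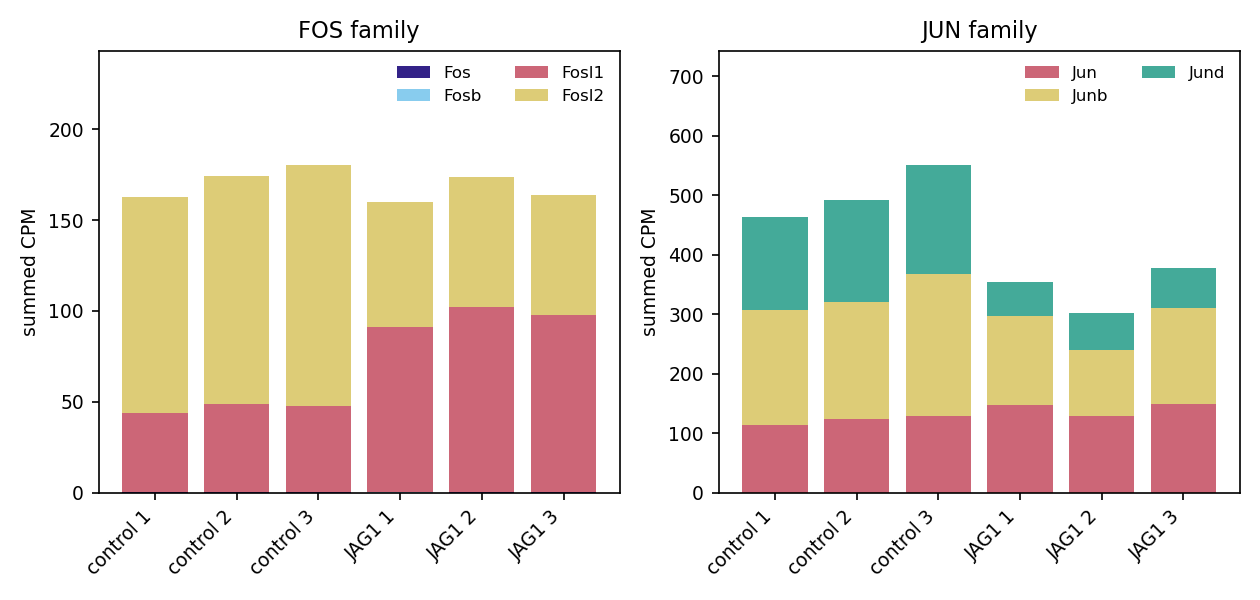
Summed CPM of the FOS family (left) and the JUN family (right) in each library, stacked by gene, with both axes starting at 0. The height of the FOS bars is alike in both groups while Fosl1 takes the larger part in the 3 JAG1-overexpressing libraries, and the JUN bars are lower there, mainly by the part of Jund.

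Among the JUN family, Jund fell most. Jund, whose protein restrains growth in many cells and changes little with serum, had 156, 171 and 182 CPM in control and 57.4, 61.2 and 65.9 CPM in JAG1-overexpressing astrocytes. The highest JAG1-overexpressing library was thus far under the lowest control library, and the log2 fold change was −1.47 (standard error 0.07, adjusted p = 2.59e-08). Among all tested genes, 91.2% had a smaller change in size. Jund lies on chr8:70698949-70700616, and the antisense gene Gm11175 covers 52.6% of its exon bases but none of the last 300, and no row was found for it.

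Junb, a JUN protein that activates AP-1 sites less than JUN does, had 192, 197 and 240 CPM in control and 150, 111 and 162 CPM in JAG1-overexpressing astrocytes. It was the noisiest of the called members, with 1 high control and 1 low JAG1-overexpressing library, although the groups did not overlap. Its log2 fold change was −0.57 (standard error 0.12, adjusted p = 0.00247). With each library left out in turn it ran from −0.68 to −0.42 and stayed past the threshold. Junb lies on chr8:84974484-84978718, and Prdx2 on the opposite strand shares 7.5% of its exon bases. None of these lie in the last 300 bases of Junb, but 122 of the last 300 bases of Prdx2, where reads of that gene would be taken, lie in exons of Junb. Prdx2 was also lower, with 157 CPM in control and 111 CPM in JAG1-overexpressing astrocytes (log2 fold change −0.49 with standard error 0.06, adjusted p = 2.42e-05), and without the strand used in counting, reads of Prdx2 in the row of Junb cannot be told apart from its own.

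Jun, the founding member of its family and itself a target of AP-1, had 114, 124 and 128 CPM in control and 147, 129 and 149 CPM in JAG1-overexpressing astrocytes. The groups came close: the lowest JAG1-overexpressing library, at 129 CPM, was barely above the highest control library, at 128 CPM. The log2 fold change was 0.21 (standard error 0.07, 95% interval 0.06 to 0.37, adjusted p = 0.0206), and 37.4% of all tested genes had a smaller change in size. The adjusted p rose to 0.0546 without control replicate 2, to 0.0815 without JAG1-overexpressing replicate 1 and to 0.0869 without JAG1-overexpressing replicate 3, so that the call rests on all of these libraries. Jun lies on chr4:95049034-95052222, and the antisense gene Junos, of which 232 bases lie in its exons and none in its last 300, had no row that could be matched.

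Summed over the JUN family, control astrocytes had 502 CPM ± 44.6 (SD, n = 3), and JAG1-overexpressing astrocytes had 345 CPM ± 38.8 (SD, n = 3), with the lowest control library at 463 CPM and the highest JAG1-overexpressing library at 377 CPM. Jun made up 24.4% ± 0.962 (SD, n = 3) of it in control and 41.2% ± 1.65 (SD, n = 3) in JAG1-overexpressing astrocytes, and Jund 33.9% ± 0.833 (SD, n = 3) and 18.0% ± 2.10 (SD, n = 3). The share of Junb was 41.7% ± 1.77 (SD, n = 3) and 40.8% ± 3.34 (SD, n = 3), a difference within the spread between libraries. There was more JUN than FOS message in each library, by 2.84, 2.82 and 3.06 times in control and by 2.22, 1.74 and 2.31 times in JAG1-overexpressing astrocytes. In order of their level in control astrocytes, Junb stood above Jund, Fosl2, Jun and Fosl1; the ranges of Junb and Jund did not overlap, and those of Fosl2 and Jun did. In JAG1-overexpressing astrocytes the ranges of Jun and Junb overlapped at the top, followed by Fosl1 and then by Fosl2 and Jund, whose ranges just overlapped, at 65.8 and 65.9 CPM.

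Egr1, a zinc finger factor that serum and growth factors induce through ERK and SRF, rose most of the members when all libraries were used. It had 22.6, 26.6 and 28.5 CPM in control and 85.5, 103 and 93.7 CPM in JAG1-overexpressing astrocytes. No library of either group came near the other group, and the log2 fold change was 1.86 (standard error 0.10, adjusted p = 3.53e-08). Without control replicate 1 it was 1.77, against 1.78 for Ier3, so that the order of the largest rises turned. The level of Egr1 was above that of 53.7% of tested genes in control and of 81.5% in JAG1-overexpressing astrocytes.

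Ier3, also named IEX-1, an early response gene that acts on cell survival and prolongs ERK activity, was the most abundant member in JAG1-overexpressing astrocytes. It had 109, 108 and 96.9 CPM in control and 350, 342 and 361 CPM in JAG1-overexpressing astrocytes. The JAG1-overexpressing libraries differed little among themselves, and the log2 fold change was 1.75 (standard error 0.06, adjusted p = 1.27e-09). Ier3 lies on chr17:35821684-35822923, on which the median log2 fold change was 0.00301, and no annotated gene overlaps it.

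Atf3, a factor of the ATF branch that stress induces and that pairs with JUN proteins, was barely expressed. It had 31, 20 and 23 reads in control and 18, 18 and 9 reads in JAG1-overexpressing astrocytes, which is 1.53, 1.07 and 1.20 CPM against 0.897, 1.24 and 0.546 CPM. The groups overlapped, and the gene lies on chr1:191170296-191218039. The log2 fold change was −0.52 with a 95% interval from −1.26 to 0.21 (adjusted p = 0.205), an interval that leaves room for more than a 2-fold fall as well as for a small rise.

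Within the control group, replicate 1 had the lowest CPM for 6 of the 8 tested members and the highest for 2 of them, Ier3 and Atf3. In the JAG1-overexpressing group, replicate 1 was lowest for 3 and highest for 0. Replicate 2 of that group was lowest for 3 and highest for 4, and replicate 3 was lowest for 2 and highest for 4.

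**Figure D3:**
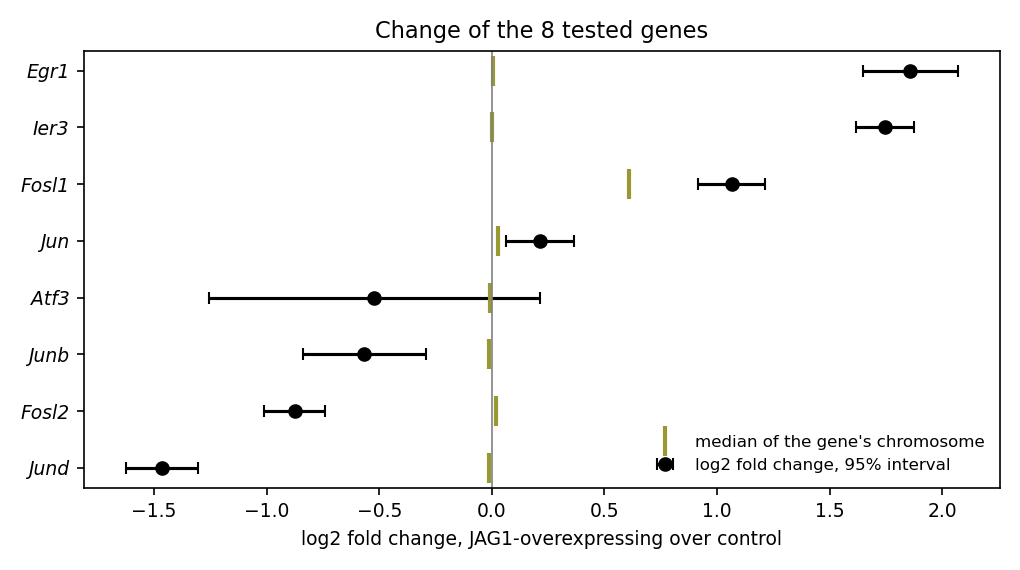
Log2 fold change (JAG1-overexpressing over control) of the 8 tested genes, with 95% intervals from edgeR's quasi-likelihood fit, ordered by size. Ticks mark the median of all tested genes on the chromosome of each gene, which is near 0 except for Fosl1, on chromosome 19; the interval of Atf3 alone crosses 0.

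Genes whose profile was closest to that of a member were sought among tested genes that averaged 10 CPM or more, by the distance between log2 CPM centred over the 6 libraries. For Jun these were Yap1 (distance 0.06), Nelfb and Mtfr2 (both 0.08), with log2 fold changes from 0.19 to 0.25. For Fosl1 they were Fkbp2 (0.10) and Prdx5 (0.12), which lie on chromosome 19 too, and Map2 (0.14). For Fos the smallest distance was 1.19, that of Snx7 and Dgcr14, followed by Coq10a at 1.21, and Fos had at most 9 reads in any library.

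Among 31 other bZIP factors, which pair with the members or with each other, 26 were tested. In JAG1-overexpressing astrocytes 11 of these were higher and 9 lower, or 76.9% called. Of all tested genes 55.1% were called, 27.4% as higher and 27.7% as lower. The median of the log2 fold changes of the list was 0.03. Batf, Batf2 and Batf3, whose proteins pair with JUN proteins and which were named after their values were seen, had at most 9 reads in any library. Of the genes named by rule, Atf6, a sensor of stress in the endoplasmic reticulum, had 28.1, 30.8 and 36.2 CPM in control and 87.5, 87.8 and 98.4 CPM in JAG1-overexpressing astrocytes (log2 fold change 1.52 with standard error 0.09, adjusted p = 1.34e-07). The groups were far apart. Maff, a small MAF protein, rose by a log2 fold change of 0.90 (adjusted p = 0.00015) and Cebpb, a factor of inflammation and of the mesenchymal state, by 0.88 (standard error 0.20, adjusted p = 0.00365), the latter with a wide range of 30.6 to 64.7 CPM in control. Atf7 fell by 0.91 on the log2 scale and Atf4, the factor of the integrated stress response and the most abundant of the list, by 0.51, from 1621 to 1137 CPM. Atf4, Atf7 and Maff lie on chromosome 15, on which the 459 tested genes had a median of −0.53, so that relative to their chromosome the changes were 0.02, −0.38 and 1.43. Ddit3, also named CHOP, fell by 0.23 (adjusted p = 0.0134), and its adjusted p was 0.0571 without JAG1-overexpressing replicate 3.

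Of 46 other immediate early or early response genes, 43 were tested, and 21 were lower and 8 higher. This is 67.4% called, against 55.1% of all tested genes (27.7% lower and 27.4% higher). The median of the log2 fold changes was −0.27. Ctgf, a matricellular protein induced by serum, YAP and TGF-β, had the largest fall named by the rule, with 1307, 2001 and 2260 CPM in control and 199, 169 and 184 CPM in JAG1-overexpressing astrocytes. The control libraries were spread widely, replicate 1 being lowest, yet all lay far above the others, and the log2 fold change was −3.33 (standard error 0.17, adjusted p = 2.91e-08). Ptgs2, the inducible cyclooxygenase, fell by 1.30 and Thbs1, thrombospondin 1, by 0.89 on the log2 scale. Among genes averaging 10 CPM or more, the largest rises were those of Id1, an inhibitor of bHLH factors, by 1.56 (standard error 0.10, adjusted p = 1.34e-07) on the log2 scale, of Hbegf, an EGF receptor ligand, by 1.08 (standard error 0.06, adjusted p = 4.41e-08), and of Plk3 by 0.80. Hbegf went from 53.7, 55.1 and 51.3 CPM to 111, 112 and 115 CPM, with little spread in either group.

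The kinases and promoter factors through which serum reaches Fos, Jun and Egr1 numbered 34, of which 33 were tested and 9 were higher and 8 lower. The share called, 51.5%, was near the 55.1% of all tested genes, and the median of the log2 fold changes was 0.12. Map2k3, a kinase that activates p38, had 197, 219 and 220 CPM in control and 558, 529 and 555 CPM in JAG1-overexpressing astrocytes (log2 fold change 1.37 with standard error 0.06, adjusted p = 6.17e-09). Elk3, an ETS partner of SRF, rose by 0.62, and Rps6ka4, the kinase MSK2, by 0.81, the latter on chromosome 19, relative to which its change was 0.20. Rps6ka1, the kinase RSK1 downstream of ERK, fell from 20.5, 20.1 and 17.5 CPM to 3.44, 2.96 and 3.40 CPM (log2 fold change −2.56 with standard error 0.12, adjusted p = 1.81e-08). Rps6ka2 fell by 0.94, and Mkl1, the actin-controlled partner of SRF, by 0.90, on chromosome 15, relative to which its change was −0.37.

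Of 32 genes widely described as targets of AP-1, 27 were tested, and 9 were higher and 11 lower. This is 74.1% called, against 55.1% of all tested genes (27.4% higher and 27.7% lower). The median of the log2 fold changes was 0.05. Among the rises, Plaur, the urokinase receptor, had 21.3, 25.6 and 39.2 CPM in control and 54.8, 74.7 and 66.2 CPM in JAG1-overexpressing astrocytes (log2 fold change 1.18 with standard error 0.19, adjusted p = 0.000257). Lgals3, galectin 3, rose by 1.18 (standard error 0.05) and Upp1, uridine phosphorylase, by 0.96. Among the falls, Lox, the lysyl oxidase that links collagen, went from 470, 454 and 486 CPM to 47.9, 49.5 and 51.9 CPM (log2 fold change −3.24 with standard error 0.06, adjusted p = 2.27e-11). Mmp14, a membrane-bound metalloproteinase, fell by 1.41 on the log2 scale. The secreted metalloproteinase Mmp9, named after its values were seen, had 57, 56 and 58 reads in control and 2, 0 and 1 reads in JAG1-overexpressing astrocytes, and Ccnd1, cyclin D1, chosen in the same way, rose from between 1501 and 1651 CPM to between 3010 and 3122 CPM (log2 fold change 0.96 with standard error 0.05, adjusted p = 5.15e-08).

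**Figure D4:**
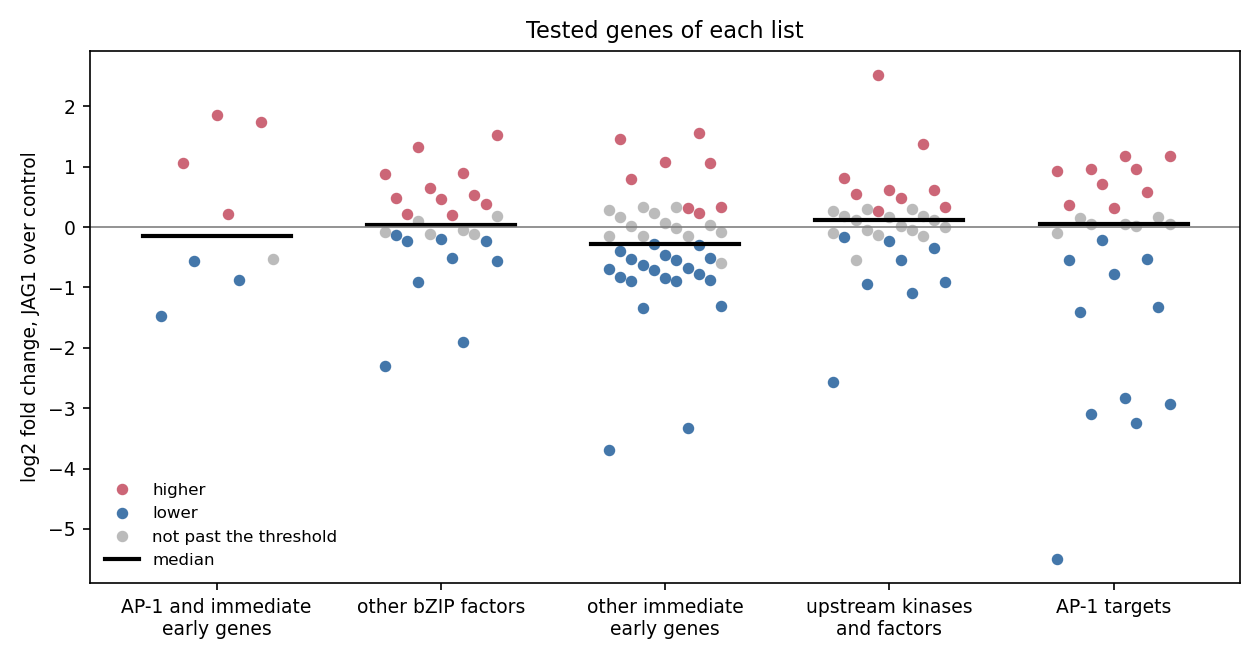
Log2 fold change (JAG1-overexpressing over control) of each tested gene in 5 lists, with the median of each list as a bar and genes past an adjusted p of 0.05 in red (higher) and blue (lower). The median of the other immediate early genes is −0.27, and the other medians lie between −0.15 and 0.12.

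The labels were checked against the levels of defining genes. Jag1 had 8.98, 10.8 and 11.2 CPM in control and 15.1, 13.6 and 13.8 CPM in JAG1-overexpressing astrocytes (log2 fold change 0.46 with standard error 0.11, adjusted p = 0.00446). Reads of these libraries lie at the 3' end of transcripts, and whether the JAG1 of the vector carries the counted end of mouse Jag1 is not given, so that this value does not check the label. Cdkn2a, the gene of Ink4a and Arf, had 0 to 5 reads in each library. Of 13 astrocyte markers, Gfap and Aqp4 had 0 reads in all libraries, 8 markers were tested and 7 of these were lower in JAG1-overexpressing astrocytes. Among all tested genes, 27.7% were called as lower. Sox9, which marks the astrocyte lineage, had 186, 180 and 177 CPM in control and 18.1, 19.1 and 16.6 CPM in JAG1-overexpressing astrocytes, whereas vimentin, the most abundant of the list, had 3104 and 3212 CPM. The summed level of the list was between 3293 and 3778 CPM in control and between 3356 and 3422 CPM in JAG1-overexpressing libraries. Most of this sum was vimentin, with 2863 to 3296 CPM in control and 3172 to 3249 CPM in JAG1-overexpressing libraries. The sum therefore says little about the other markers of the list.

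Markers of other cells of the brain also moved with the groups, and their part in the changes of the AP-1 genes was not tested. Among all tested genes, 27.4% were called as higher and 27.7% as lower. Of 10 microglial markers 2 were tested, 1 higher and 1 lower, and the list summed to between 3.40 and 4.35 CPM in control and between 1.79 and 2.61 CPM in JAG1-overexpressing libraries, with Aif1, C1qa and Itgam at no more than 3 reads in any library. The most abundant microglial marker was Tmem119 in control, with 48, 48 and 34 reads against 1, 2 and 2, and Cx3cr1 in JAG1-overexpressing astrocytes, with 23, 19 and 22 reads against 10, 17 and 14 in control. Of the 10 oligodendrocyte markers 3 were tested and 1 was lower, and the list summed to between 5.07 and 6.81 CPM in control and between 4.54 and 5.22 CPM in JAG1-overexpressing libraries, the most abundant being Pdgfra, and Mog, Sox10, Olig1, Mag and Cspg4 were at 0 reads throughout. Of the 8 neuron markers 3 were tested, 1 higher and 2 lower, and the list summed to between 100 and 110 CPM in control and between 58.6 and 61.7 CPM in JAG1-overexpressing libraries, nearly all of it Tubb3, the most abundant in control, and Map2, the most abundant in JAG1-overexpressing astrocytes, while Snap25, Syt1 and Dcx were at 0. Of the 7 endothelial markers 1 was tested, Flt1, which was higher, and the list summed to between 1.04 and 1.93 CPM and between 4.43 and 4.92 CPM, with Tek and Tie1 at 0. The 9 markers of fibroblasts and mural cells summed to between 821 and 858 CPM in control and between 316 and 364 CPM in JAG1-overexpressing libraries; 7 were tested, 5 lower and 1 higher, with Lum and Rgs5 at 0. The most abundant of this list was Acta2 in control, at 310 CPM against 39.4 CPM in JAG1-overexpressing astrocytes, and Col1a1 in JAG1-overexpressing astrocytes, at 164 CPM against 236 CPM in control. The 1 that was higher was Col1a2, at 3.35 CPM in control and 50.7 CPM in JAG1-overexpressing astrocytes (log2 fold change 3.92 with standard error 0.13). Of 11 heat shock genes, which report on handling, 9 were tested, and 2 were higher and 4 lower, and the median of the log2 fold changes was −0.02. Their summed level ran from 4703 to 5108 CPM in control and from 4500 to 4851 CPM in JAG1-overexpressing libraries, most of it Hspd1 and Hsp90aa1. The heat-inducible Hspa1b, named after its values were seen, had 11, 8 and 5 reads in control and 73, 36 and 58 reads in JAG1-overexpressing astrocytes. It passed the filter on low counts through the JAG1-overexpressing libraries, so that no fold change or p-value is given for it. It is nevertheless 1 of the 2 genes counted as higher above, the other being Bag3, and the median includes it. Its part in that count and median is thus not a result of its own. The untested Hspa1a had 2, 4 and 4 reads against 10, 7 and 6. The part of the heat shock genes in the changes of the AP-1 genes was not tested.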

How the data were processed

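QuantSeq 3' mRNA libraries were analysed, 3 of control and 3 of JAG1-overexpressing astrocytes. The authors deposited 1 table per library with raw read counts per gene symbol, without normalization, and the log2 of a read count that the authors normalized by a method not given in the sources used here; the submitters' processing notes name Bowtie2, bedtools, edgeR, GRCm38 and mm10, without settings. Raw counts were used, and the deposited log2 values only for an alternative without a test. Counts were analysed in R 4.3.3 with edgeR 4.0.16: filterByExpr (minimum count 10) left 11712 genes, TMM normalization and the quasi-likelihood test between groups followed, with Benjamini-Hochberg adjustment over all tested genes and a threshold of 0.05. Standard errors were derived from the F statistic. Of 23282 rows, 22059 matched a RefSeq symbol of GRCm38.p6 and 1090 a synonym; of symbols on several rows, that with most reads was used. Locations are from GENCODE M21 (GRCm38).

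The members and lists were chosen with earlier results of these data known, and the lists were written from general knowledge; Srf, Creb1, Vim and Dcn stand in more than 1 list. Named genes were the 10 members, the 3 largest called rises and falls of each pathway list averaging 10 CPM or more, the nearest profiles of Fos, Jun and Fosl1, marker genes, Jag1 and Cdkn2a; 1 gene that the rule names is not reported here. Alternatives were DESeq2 1.42.0, limma 3.58.1 (voom), library size alone, upper-quartile normalization, other filters, a fold limit of 2, a replicate block, and leaving out each library. No 2 libraries agreed within counting error (chi-square per degree of freedom at least 3.82). Between control libraries this value was 7.29 for replicates 1 and 2, 16.1 for replicates 1 and 3 and 5.50 for replicates 2 and 3. Between JAG1-overexpressing libraries it ran from 3.82 to 5.31. On simulated data with 200 changed genes among 11670 tested, 84% of 1.5-fold and 100% of 2-fold changes were recovered, and 3.16% of calls fell on unchanged genes. The simulation gave every gene the same spread between libraries and changed no gene with a low count. It also changed a far smaller share of genes than was called in the data. These shares therefore check the code and need not hold for the real libraries.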

Additional observations from a re-analysis of the deposited data

How the results depend on the processing

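The calls of Egr1, Ier3, Fosl1, Fosl2, Junb and Jund kept their direction and stayed past an adjusted p of 0.05 under both other tools, both other scalings, both other filters, a replicate block and with each library left out, with log2 fold changes from 1.77 to 1.93, 1.69 to 1.78, 1.02 to 1.11, −0.91 to −0.84, −0.68 to −0.42 and −1.52 to −1.41. Jun ran from 0.17 to 0.28 with an adjusted p from 0.00561 to 0.0869, and Atf3 from −0.79 to −0.28, short of the threshold throughout. Relative to its chromosome Fosl1 changed by 0.46. With a fold limit of 2 added, 639 genes were higher and 994 lower; of the members 3 were higher and 1, Jund, was lower; of the other bZIP factors 2 were higher and 2 lower, of the other immediate early genes 4 and 4, of the upstream genes 2 and 2, and of the AP-1 targets 2 and 7. With each library left out, 2724 to 3256 genes were higher and 2792 to 3344 lower, of the members 3 to 4 and 3. The median log2 fold change of all genes was 0.02 with library size alone and −0.02 with upper-quartile normalization. Counts without the genes of chromosomes 15 and 19, an alternative chosen after the data were seen, were within 1.5 times the main counts for each list, 3 members being higher and 3 lower. The shares of the FOS and JUN families moved by less than 1 SD with reads summed over a group. Samples with the same replicate number correlated by 0.15, 0.06 and 0.12 in their deviations from the group means, so that the numbers were not taken as pairs, although each library correlated best with its own number, and the replicate block gave 3380 genes higher and 3331 lower and changed no call of a member. What the depth limits is Fos, Fosb and Atf3, with at most 31 reads in a library.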
